A study of Mus musculus with 4 samples.

Results

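Among 19758 quality-filtered barcodes of 3 libraries of Kit-positive mouse bone marrow, 76 held the transcripts of both a kappa light chain and CD20 and are described here as Igkc+ Ms4a1+ B cells. Each had at least 1 unique molecular identifier (UMI, 1 captured transcript) of Ms4a1, which encodes CD20, at least 1 UMI of Cd79a, a signalling chain of the B-cell receptor, and at least 3 UMIs of Igkc, the kappa light chain constant region. Quality filtering asked for 500 genes or more, 1000 gene UMIs or more and a mitochondrial share of up to 10%, and the whole series held 27166 such barcodes out of 34398. The Mll3-deleted library gave 61 of the cells, the control library 8 and the Mll4-deleted library 7. The cells were chosen by their measured UMIs of Ms4a1, Cd79a and Igkc, so the levels of these 3 genes are given as a description only.

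The study measured transcripts and 13 surface antibodies in the same single cells, in a control library and in libraries with deletion of Mll3, of Mll4 or of both (called Mll3/4-deleted), each group being 1 library. Mll3 (gene Kmt2c) and Mll4 (gene Kmt2d) are related histone methyltransferases that act at enhancers. All 4 libraries came from CD45.2+ Kit+ cells taken 10 weeks after transplantation, CD45.2 being a CD45 allele often used to tell grafted cells from those of a host. How the genes were deleted, the strain of the host and the number of animals in each library are not given in the sources used here. With 1 library per group no difference could be tested, every comparison is between libraries or between cells of 1 library, and all intervals are exact 95% intervals for counting error only (Poisson for CPM, the UMIs of a gene scaled to the same total in every set of cells; Clopper-Pearson for shares). Where nothing was counted, the words "allows up to" and "at least" give the limit that 3 counts would set, not a bound of those intervals. UMIs are deduplicated molecules, and cells of 1 library are not replicates.

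B cells form in the bone marrow. Pro-B and pre-B cells recombine their immunoglobulin genes with Rag1, Rag2 and Dntt, and pair the new heavy chain with the surrogate light chain made from Vpreb1, Vpreb2 and Igll1. Once a kappa or lambda light chain is made, the cell shows a complete IgM receptor, leaves the interleukin-7 dependent stage, and as it matures gains IgD, MHC class II and the receptors for survival signals and homing. Mature B cells recirculate, and some return to the marrow. Kit is carried by stem cells, progenitors and early pro-B cells, and a sort for Kit is aimed at those and not at mature B cells.

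The deposited depth ranged from 36413830 to 174795636 gene UMIs per library, and the kept barcodes had a median of 16052.5 UMIs in the control library, 17522 in the Mll3-deleted and 5221 in the Mll4-deleted library. No barcode of an Igkc+ Ms4a1+ cell occurred among the kept barcodes of another library, although 6 to 16 kept barcodes were shared by each pair of libraries. In barcodes with no UMI of any of 6 B-lineage genes, among them Cd79a, Cd79b, Ms4a1, Ebf1 and Pax5, Kmt2c was at 48.6 CPM (47.4 to 49.8) in control, 28 CPM (27.0 to 29.0) in the Mll3-deleted and 60.7 CPM (58.0 to 63.4) in the Mll4-deleted library, and Kmt2d at 25.5 CPM (24.7 to 26.4), 22 CPM (21.1 to 22.9) and 26.0 CPM (24.3 to 27.9). Kmt2d was thus not lower in the library labelled Mll4 deleted than in control. The counts come from the 3′ end of transcripts, which need not lie in the deleted part, so they do not check the labels. In the 61 cells of the Mll3-deleted library, 23 UMIs of Kmt2c (33.7 CPM, 21.4 to 50.6) and 9 of Kmt2d (13.2 CPM, 6.04 to 25.1) were counted.

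All 4 markers of mature B cells were detected in each library. Igkc ran from 5 to 45 UMIs per cell (median 27) in control, from 7 to 8419 (median 37) in the Mll3-deleted and from 5 to 9 (median 6) in the Mll4-deleted library, so none of the 76 sat at the limit of 3 UMIs. In the Mll3-deleted library the next highest Igkc count after 8419 was 426, and the third was 89. Just outside the rule, 7 control, 16 Mll3-deleted and 1 Mll4-deleted barcodes had Ms4a1 and Cd79a but fewer than 3 Igkc UMIs, and 21 of these 24 had none at all; the 3 others had 1. A barcode without B-lineage genes had an Igkc UMI in 3.31% of cases in the Mll3-deleted library (median depth 17676 UMIs), which is the level free RNA can give there. Fcmr, the Fc receptor for IgM and the one marker of mature B cells that the rule did not use, was detected in 6 of 8 control cells, 47 of 61 Mll3-deleted cells and 4 of 7 Mll4-deleted cells.

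**Figure D1:**
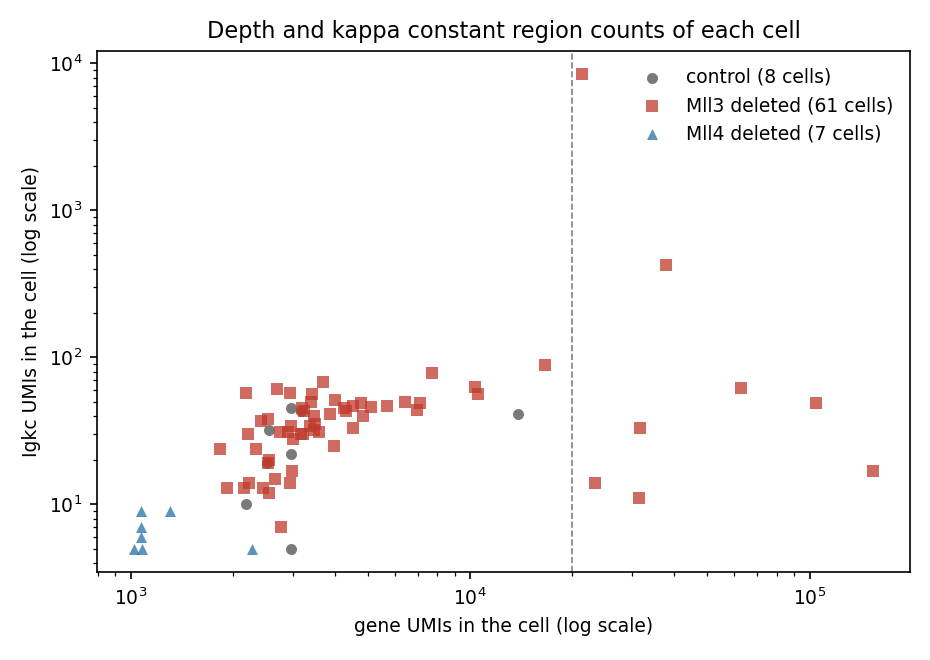
Each point is a cell, by its total of gene UMIs (x, log scale) and its Igkc UMIs (y, log scale), in control (8 cells), Mll3-deleted (61) and Mll4-deleted (7) libraries. The dashed line marks 20000 UMIs; 8 cells of the Mll3-deleted library lie to its right, among them the cell with 8419 Igkc UMIs, and the Mll4-deleted cells sit at the lower left with 5 to 9 Igkc UMIs.

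The cells were small in RNA content compared with the rest of their libraries. Their median depth was 2961.5 UMIs for control, 3464 in the Mll3-deleted and 1073 in the Mll4-deleted library, against 4954, 8185 and 2535 in the B precursors defined below. In the Mll4-deleted library 6 of the 7 cells had fewer than 1500 UMIs and 3 further barcodes met the gene rule but failed on UMIs, so the count of 7 lies close to the quality limit. Mitochondrial UMIs made up a median of 4.41%, 4.51% and 4.49% of the cells' UMIs, against 3.08%, 3.31% and 1.92% of all kept barcodes.

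In the Mll3-deleted library 8 of the 61 cells exceeded 20000 UMIs and together held 68.5% of the UMIs of all 61. They did not form a single kind, and 5 of the 8 were among the barcodes of highest doublet score (Scrublet), as were 1 of the other 53, 3 of 8 control and 2 of 7 Mll4-deleted cells. The cell of 21358 UMIs carried 8419 UMIs of Igkc, 2672 of Ighm and 1003 of Jchain, the joining chain of secreted IgM, with 6 of Sdc1 (CD138) and 1 of Prdm1, and its B220 antibody count was 17. All Jchain UMIs of the 61 cells were in it, and these are genes of antibody-secreting plasma cells. In the cells of 23386 and 31541 UMIs, granulocyte and monocyte markers made up 30.3% and 16.1% of the UMIs and the Gr1 antibody count was 2583 and 812, against a median of 33 in all 61. The cells of 31603, 62881, 104658 and 153587 UMIs had 0.544%, 0.587%, 0.487% and 0.507% of their UMIs in erythroid markers, against a median of 0 among the 61. The cell of 37806 UMIs had 426 Igkc, 32 Ms4a1, 68 Cd79a and 17 Fcmr UMIs, a B220 count of 1309 and 170 UMIs of mitosis genes. Because a sum over the 61 cells is mostly a sum over these 8, list medians and most gene ratios below are also given for the 53 cells of up to 20000 UMIs, a limit chosen after the counts were seen.

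In those 53 cells erythroid, T and NK and plasmacytoid dendritic markers were low, while the median of granulocyte and monocyte markers was higher than in B precursors. UMIs of 11 granulocyte and monocyte markers ranged from 15.5 to 125 per 10000 UMIs of a cell (median 62.9). The median was 32.8 in B precursors of the same library. In its barcodes without B-lineage genes the median was 26.7 and the highest value 4794. Of the 11 markers, 10 were detected in the 53 cells and Csf1r was at 0. Erythroid markers reached 7.81 per 10000 at most, with the globin genes Hba-a2 and Hbb-bs at 0. The T and NK list was at 0 except Nkg7, and plasmacytoid dendritic markers were at 0 except Bst2. In the 7 Mll4-deleted cells the granulocyte and monocyte list was higher, 69.0 to 271 per 10000 (median 167) against a median of 78.9 in that library's B precursors, and 6 of the 7 had over 1% of their UMIs in other-lineage markers. The part of this RNA in the levels below was not tested.

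Igkc+ Ms4a1+ cells made up 0.962% (0.737 to 1.23) of the kept barcodes in the Mll3-deleted library, 0.103% (0.0445 to 0.203) in control and 0.124% (0.0498 to 0.255) in the Mll4-deleted library. The share in the Mll3-deleted library lay above the intervals of the other 2. Without the 8 cells of over 20000 UMIs it was 0.836%, and with a mitochondrial limit of 5% it was 0.714%. The rule found 0 of 7408 kept barcodes in the Mll3/4-deleted library, which allows up to 0.0405% (exact interval 0 to 0.0498%). B precursors, in contrast, made up 6.55% (6.01 to 7.13) of control, 6.36% (5.77 to 6.98) of the Mll3-deleted library and 2.18% (1.81 to 2.59) of the Mll4-deleted library. In the Mll3/4-deleted library they were 7246 of the 7408 kept barcodes (97.8%, 97.5 to 98.1). Its count of 0 is therefore a share of barcodes that were nearly all B precursors.

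The cells of the Mll3-deleted library came from both hashtags, 2 antibody tags of a kind used to mark pooled material. Above the threshold of the first hashtag alone were 31 cells, of the second alone 25, and of both 5. They made up 0.955% (0.65 to 1.35) of the barcodes with the first hashtag alone and 0.961% (0.623 to 1.42) of those with the second alone. In control 5 cells carried the first hashtag, 2 the second and 1 both, and in the Mll4-deleted library 2 and 5. What each hashtag marks is not given in the sources used here.

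To describe their identity, the 61 cells of the Mll3-deleted library were set against 403 B precursors of the same library, which had at least 1 UMI of Cd79a, at least 3 UMIs of Vpreb1 and Igll1 together, and none of Ms4a1. Expression was summed over the cells of each set, scaled to CPM, and compared as a log2 ratio with a pseudocount of 1 CPM over the 7864 genes with at least 50 UMIs in both sets together. A gene was counted as different from 2-fold upward. By that rule 3.66% of the genes were higher in the Igkc+ Ms4a1+ cells and 10.2% were lower. With the 53 cells, 7.73% of 7657 genes were higher and 21.7% lower, and 129 of the 288 higher and 518 of the 803 lower genes passed with both sets. The median over all genes was -0.05 with 61 cells and -0.24 with 53, so leaving out the largest cells moved the median as well as the counts. It also left fewer UMIs to compare. The 61 cells held 681740 gene UMIs and the precursors 4775945, so a gene could reach the minimum of 50 UMIs through the precursors alone. The part of this imbalance in the larger number of lower genes was not tested. The precursors were deeper, with a median of 8185 UMIs per cell against 3464, so shares of cells with a UMI are also given after each cell was thinned to 1000 UMIs.

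**Figure D2:**
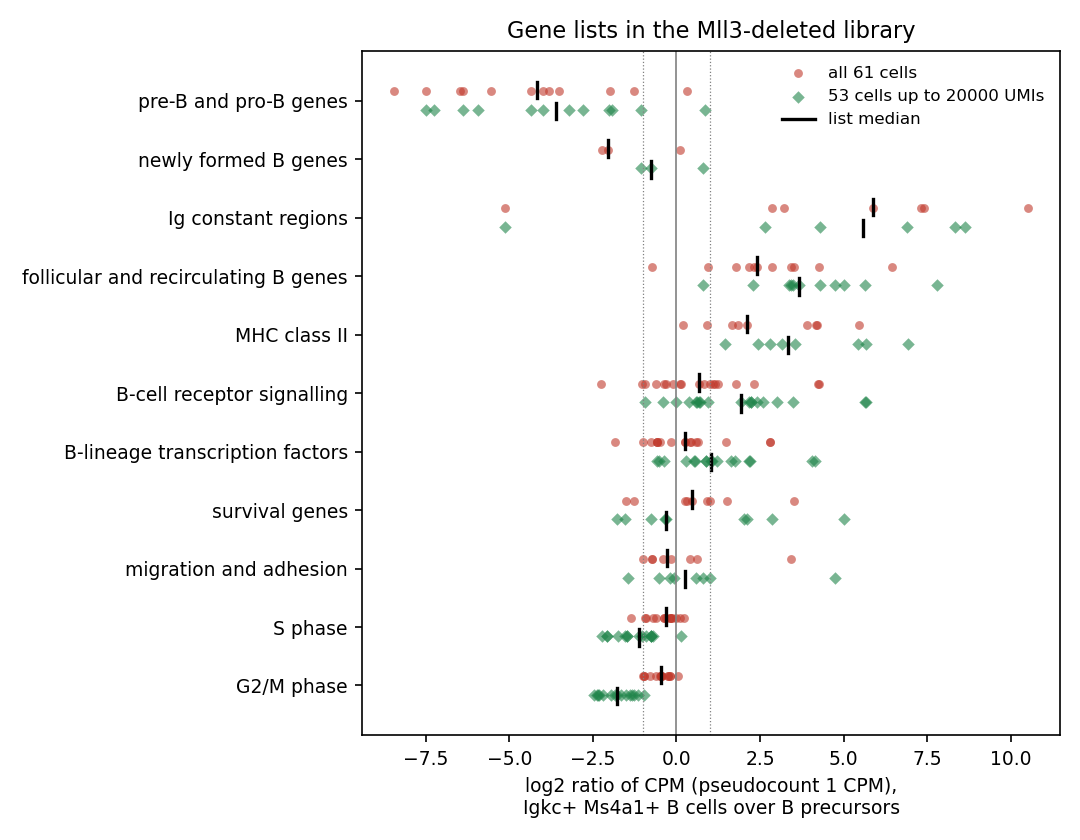
Log2 ratios of CPM, Igkc+ Ms4a1+ B cells over 403 B precursors of the Mll3-deleted library, for each measured gene of 11 lists, with all 61 cells (red circles) and with the 53 cells of up to 20000 UMIs (green diamonds); black bars are list medians and dotted lines mark 2-fold. Pre-B and pro-B genes lie far to the left with both sets, follicular and MHC class II genes to the right, and the S phase and G2/M lists move left when the largest cells are left out.

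Genes of the pre-B and pro-B stages were lower in the Igkc+ Ms4a1+ cells as a group. The precursors were chosen for surrogate light chain UMIs, which belong to these stages, so the choice itself favoured this direction. Of the 15 listed, 2 had served to choose the precursors, 12 of the other 13 were measured, and 11 of the 12 were at least 2-fold lower, with a median log2 ratio of -4.18 (-3.61 with 53 cells). Dntt, the polymerase that adds bases at immunoglobulin joints, had 1 UMI in the 61 cells and 4121 in the precursors, where 389 of 403 cells had it (log2 ratio -8.45, or -7.26 with 53 cells). Rag1 had 5 UMIs in 3 cells against 804 in 285, and Rag2 had none against 396 in 230 cells, at least 18.8-fold lower (5.94-fold with 53 cells). Vpreb2, a surrogate light chain gene, had none against 853 and was at least 40.6-fold lower (12.8-fold with 53 cells). Lef1, a transcription factor of early lymphoid cells, had 2 UMIs against 1658 (-6.47, or -5.94 with 53 cells). Il7r, the interleukin-7 receptor, had 9 UMIs in 5 cells against 777 in 274 (-3.53, or -1.93 with 53 cells). Kit itself was the exception, at 96.8 CPM in the 61 cells and 76.8 CPM in the precursors (0.33, interval -0.07 to 0.71). The 5 stem and multipotent markers, Kit among them, had 90 UMIs in the 61 cells (132 CPM) and 39 in the 53 (181 CPM). Leaving out the 8 cells of over 20000 UMIs thus lowered the UMIs of these markers but not their CPM. The part of those 8 cells in the level of Kit alone was not tested. Arpp21, Erg, Sox4 and Myb were lower by 5.57, 3.80, 1.98 and 1.28 on the log2 scale, and with 53 cells had ratios of -4.37, -3.22, -1.07 and -2.03.

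The genes with the lowest ratios outside any list are given by their counts. Gfra2, Rsph9, Fxyd6, Dlg2, Bok, Pcp4l1 and Capsl had no UMI in the 61 cells and 131 to 331 in the precursors, which makes them lower by at least 6.23-fold (Pcp4l1 and Capsl) to 15.7-fold (Gfra2). With 53 cells the same limits were 1.97-fold and 4.97-fold, so the limit for Pcp4l1 and Capsl lay under 2-fold. Myl10 had 1 UMI against 332 and Cplx2 5 against 1054. Ighg2b, a constant region of switched antibody, had no UMI in the 61 cells and 164 in 50 of the precursors. Since 10 of the 15 lowest genes were at 0, their order follows their count in the precursors, and 6 of the 15 were also among the 15 lowest with 53 cells.

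Among 3 genes of newly formed B cells, the drop was smaller and uneven. Vpreb3, which stays on until the immature stage, was detected in 46 of the 61 cells and 400 of the 403 precursors. It was at 483 CPM against 2248 CPM (-2.22, interval -2.38 to -2.06). With 53 cells it was at 1312 CPM, a log2 ratio of -0.78, so its 2-fold difference rested on the 8 largest cells. Cd93, the AA4.1 antigen of immature B cells, had UMIs in 14 of 61 cells and 274 of 403 precursors (-2.04, or -1.05 with 53). After thinning, Cd93 was in 6.56% (1.82 to 15.9) of the cells and 15.6% (12.2 to 19.6) of the precursors, and Vpreb3 in 54.1% (40.8 to 66.9) and 88.1% (84.5 to 91.1). Cd24a, the heat stable antigen, was at 340 CPM and 319 CPM (0.09).

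Most genes of the immunoglobulin constant region list were higher in the Igkc+ Ms4a1+ cells. Of 7 measured 6 were at least 2-fold higher and 1, Ighg2b, was lower. Among the 6 was Jchain, which is not a constant region and had all its UMIs in 1 cell. With 53 cells 5 of 6 measured genes were higher and 1 lower. Ighm was present in all 76 cells, with 3 to 20 UMIs (median 7.5) in control, 1 to 2672 (median 14) in the Mll3-deleted and 1 to 6 (median 3) in the Mll4-deleted library. In the Mll3-deleted library it was at 5398 CPM against 580 CPM in precursors (3.22, or 2.65 with 53 cells). Ighd, made from the same transcript by splicing once B cells mature, was present in 6 of 8, 34 of 61 and 5 of 7 cells, and exceeded Ighm in 0, 2 and 1 of them. Its CPM in the 61 cells was 99.7 (77.5 to 126) against 12.8 in precursors (2.87, or 4.30 with 53 cells). Switched isotypes gave 3 UMIs in 2 of the 61 cells, 2 of Ighg3 and 1 of Igha, and none in the other libraries. The annotated Ighm and Ighd constant regions do not overlap on the chromosome. Only reads from a part that both transcripts share cannot be separated.

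Lambda constant region UMIs accompanied kappa in most cells. Iglc1, Iglc2 and Iglc3 together had a UMI in 8 of 8 control, 58 of 61 Mll3-deleted and 3 of 7 Mll4-deleted cells, with medians of 10.5, 12 and 0 UMIs and highest values of 47, 159 and 4. At least 3 lambda UMIs were counted in 8, 55 and 1 of them. Lambda exceeded kappa in 2, 5 and 0 cells, and was a median of 25.4%, 23.0% and 0% of the light chain UMIs. In the Mll3-deleted library 1.74% of B precursors and 0.973% of barcodes without B-lineage genes had a lambda UMI. After thinning to 1000 UMIs the share was 73.8% (60.9 to 84.2) of the Igkc+ Ms4a1+ cells and 0.248% (0.00628 to 1.37) of precursors. The log2 ratios of Iglc3, Iglc2 and Iglc1 were 7.41, 7.32 and 5.88, or 8.65, 8.35 and 6.89 with 53 cells. How the authors' counting divides reads between the 3 lambda constant regions, or between Iglc genes and other light chain genes, is not given in the sources used here.

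Variable genes were too sparse to follow clones. A kappa variable gene had a UMI in 23 of the 61 cells and a heavy chain variable gene in 14, and a leading gene with at least 2 UMIs existed in 5 and 4 cells. No variable gene led in more than 1 cell. In control and the Mll4-deleted library, 1 UMI each of a heavy chain variable gene was counted.

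Genes of follicular and recirculating B cells were higher in the Igkc+ Ms4a1+ cells as a group. Of 18 listed, 11 were measured and 9 were at least 2-fold higher, with a median of 2.40; with 53 cells 10 of 11 passed, with a median of 3.67. Fcmr had 158 UMIs in 47 of 61 cells and 8 UMIs in 6 of 403 precursors, at 232 CPM (197 to 271) against 1.68 CPM (log2 ratio 6.44, interval 6.1 to 8.35; 7.79 with 53 cells). Bank1, a B-cell scaffold protein of receptor signalling, was at 111 CPM against 4.82 (4.27, or 5.64 with 53 cells). Tnfrsf13c, the receptor for the survival factor BAFF, was present in 42 of 61 cells and 59 of 403 precursors (3.51, or 5.01 with 53 cells), and after thinning in 23.0% and 0.993%. Klf2, a transcription factor of quiescence and recirculation, was in 49 and 74 cells (3.44), Ltb, a lymphotoxin subunit, in 41 and 127 (1.78), and Cd52, a surface glycoprotein of lymphocytes, in 59 and 306 (2.17). With 53 cells the ratios of Klf2, Ltb and Cd52 were 4.74, 3.38 and 3.42. Cd37 missed the limit with 61 cells (0.93) and passed it with 53 (2.28).

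The markers that define the follicular end stage were present in a minority. Fcer2a, which encodes CD23, had 25 UMIs in 12 of the 61 cells and none in the precursors, at least 58.4-fold higher. Cr2 (CD21) was in 7 cells and 8 precursors, Cxcr5, the follicle homing receptor, in 12 and 10, Cd22, an inhibitory coreceptor, in 17 and 6, and Ccr7 in 5 and 6. These 5 had fewer than 50 UMIs and entered no count. In control Fcer2a was in 3 of 8 cells, and in the Mll4-deleted library in 1 of 7.

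Fcrla, an Fc receptor-like protein inside B cells, and Ly6d, a lymphoid surface marker, were also among the 15 highest genes. Fcrla had UMIs in 42 of the 61 cells and 24 of the precursors (4.25, or 5.67 with 53 cells). Ly6d was found in 60 of the 61 cells and 127 of 403 precursors, at 1410 CPM against 98 (3.83, or 5.21 with 53 cells). Scd1, a fatty acid desaturase, was in 34 and 8 cells (4.97, or 6.52 with 53 cells) and Rnase6 in 40 and 11 (4.46, or 5.88). Rnase6 was also detected in 15% of the deeper barcodes without B-lineage genes, while Fcmr, Fcrla and Ly6d were in 0.0973%, 0.195% and 0.778% of them. Of the 15 highest genes, 13 were among the 15 highest with 53 cells.

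Receptor signalling and transcription factor genes showed a mixed picture with 61 cells. In the receptor signalling list 7 of 19 measured genes were higher and 2 lower (median 0.68), and with 53 cells 10 were higher and 0 lower (median 1.92). Cd79b, the partner of Cd79a, was in every one of the 61 cells and at 795 CPM against 452 (0.81, or 2.24 with 53). Blk, a Src kinase of B cells, Ptpn6, the phosphatase SHP-1, and Siglecg, an inhibitory lectin, were higher by 2.31, 1.79 and 1.14, or 3.50, 3.0 and 2.59 with 53 cells. Blnk, the adaptor of pre-B receptor signalling, was lower, at 58.7 CPM against 287 (-2.27, or -0.94 with 53 cells).

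Of 17 measured transcription factors, 3 were higher and 1 lower with 61 cells (median 0.26), and 9 were higher and 0 lower with 53 (median 1.03). Pou2f2, which encodes Oct-2, and Spib, a relative of PU.1, were each higher by 2.79 and were present in 43 and 39 of the 61 cells; with 53 cells the ratios were 4.16 and 4.05. Pou2f2 was in 29.5% of the thinned cells and 1.49% of the thinned precursors. Ebf1, which commits progenitors to the B lineage, was lower, with 56 of 61 cells at a median of 4 UMIs and 402 of 403 precursors at a median of 15 (-1.84, or -0.52 with 53 cells). After thinning it was in 52.5% (39.3 to 65.4) of the cells and 79.4% (75.1 to 83.2) of the precursors. Pax5, the keeper of B-cell identity, was at 167 CPM against 139 (0.26, or 1.64 with 53 cells). Ikzf3, the gene of Aiolos, had 25 UMIs in 18 cells against 10 in 8, too few for the count.

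MHC class II genes present peptides to T cells, and most were higher in the Igkc+ Ms4a1+ cells. Of 9 measured genes 7 were at least 2-fold higher (median 2.10), and with 53 cells all 8 measured were (median 3.34). Cd74, the invariant chain that guides class II molecules, had 1351 UMIs in 55 of 61 cells and 209 in 12 of 403 precursors, at 1982 CPM (1877 to 2090) against 43.8 CPM (5.47, interval 5.29 to 5.72; 6.93 with 53 cells). After thinning Cd74 was in 73.8% (60.9 to 84.2) of the cells and 0.496% (0.0602 to 1.78) of the precursors. H2-Eb1, H2-Aa and H2-Ab1, which encode the presenting chains, were present in 30, 32 and 41 of the 61 cells and in 5, 8 and 160 of the precursors (4.2, 3.92 and 2.10, or 5.66, 5.44 and 3.54 with 53 cells). H2-DMb2 and H2-DMa, subunits of the peptide-loading factor, had ratios of 4.18 and 1.66, and H2-Oa and H2-Ob, which restrain it, 1.85 and 0.90; with 53 cells these 4 were at 5.63, 2.80, 3.15 and 2.45. Ciita, the coactivator of all class II genes, had 9 UMIs against 2 and was not counted.

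The 250 bases before the start of H2-Aa and H2-Eb1 are shown because both genes were high in the cells with high Cd74 (rank correlations per UMI of 0.81 and 0.83 over the 53 cells), and those of Vpreb3 because its correlation with Cd74 was negative. They come from RefSeq on GRCm38.p6 and are printed 5′ to 3′ along the gene's strand. Capitals mark the Y box CTGATTGG in the 2 class II genes and the octamer ATTTGCAT, the motif of immunoglobulin promoters, in Vpreb3. The first is at chr17:34287824-34288073 on the minus strand, the second at chr17:34305617-34305866 on the plus strand, and the third at chr10:75948050-75948299 on the plus strand.
H2-Aa: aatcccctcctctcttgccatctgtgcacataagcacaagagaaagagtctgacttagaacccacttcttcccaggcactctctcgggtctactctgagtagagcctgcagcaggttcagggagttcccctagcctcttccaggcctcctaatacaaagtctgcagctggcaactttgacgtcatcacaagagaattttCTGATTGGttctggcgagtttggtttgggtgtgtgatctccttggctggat
H2-Eb1: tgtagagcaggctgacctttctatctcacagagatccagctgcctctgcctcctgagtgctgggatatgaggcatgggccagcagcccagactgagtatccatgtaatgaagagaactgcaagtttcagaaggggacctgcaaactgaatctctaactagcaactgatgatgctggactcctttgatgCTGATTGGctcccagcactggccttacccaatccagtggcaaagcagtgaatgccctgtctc
Vpreb3: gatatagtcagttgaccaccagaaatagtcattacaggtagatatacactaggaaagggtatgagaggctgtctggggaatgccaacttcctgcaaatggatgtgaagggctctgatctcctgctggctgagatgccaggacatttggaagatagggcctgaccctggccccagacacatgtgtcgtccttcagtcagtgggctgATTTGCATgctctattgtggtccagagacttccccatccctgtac

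In H2-Aa the Y box began 51 bases before the start and in H2-Eb1 62 bases before it, and the Vpreb3 octamer began 45 bases before the RefSeq start. Another annotation of the same build has Vpreb3 at chr10:75943057-75949657, so by that annotation the Vpreb3 window lies inside the gene. On either strand CTGATTGG was found in 3.83% of the 32851 RefSeq windows of the same length and in 3 of the 7 class II genes that had a window (H2-Aa, H2-Eb1 and H2-Oa), and ATTTGCAT in 1.6% of all windows and in none of those 7. Also searched were GATTGGCT, which overlaps the Y box (3.62% of windows; H2-Eb1 and H2-Oa), TTCCTGGAA (0.651%; H2-DMb2), and CCCAAGGGA and AGCAACAG (0.387% and 1.83%; none of the 7). A match describes these letters and does not show that a factor binds there.

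Within the Igkc+ Ms4a1+ cells, class II expression set the cells apart from one another. Among the 53 cells of up to 20000 UMIs Cd74 ran from 0 to 75 UMIs (median 21), Vpreb3 from 0 to 37 (median 4) and the B220 antibody from 12 to 1131. In ranges chosen after the values were seen, 11 cells had up to 4 Cd74 UMIs, 14 had 5 to 19 and 28 had 20 or more. From the lowest to the highest range the median Vpreb3 count was 8, 3.5 and 2.5, and the median B220 antibody count 220, 366 and 608.5. All 11 cells of the lowest range had Vpreb3 (4 to 37 UMIs), none had H2-Aa or Fcer2a, and 3 had Ighd. In the highest range 10 of 28 cells lacked Vpreb3, 24 had H2-Aa, 10 had Fcer2a and 19 had Ighd.

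Depth moved with the ranges, which are cut on raw counts. The median UMI count was 2452, 3622 and 3485.5 in the 3 ranges, and its part in the ranges was not tested, while the median of Ebf1 was 4, 2.5 and 4 UMIs. Per 10000 UMIs, the rank correlation of Cd74 with the other class II genes was 0.85 over the 53 cells, with the B220 antibody 0.53 and with Vpreb3 -0.59; over all 61 cells these were 0.82, 0.53 and -0.36. Such values describe cells of 1 library, which share its free RNA, and transcript shares of a cell share their denominator. B220 counts also followed the total antibody count of a cell (0.55 over the 53 cells), and Cd74 followed that total less closely (0.25). Cd93 was in 5, 2 and 3 cells and Fcmr in 8, 10 and 24 cells of the ranges. The label of mature B cells thus covered cells with IgD, CD23 and class II transcripts as well as cells with Vpreb3 and few or none of these.

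**Figure D3:**
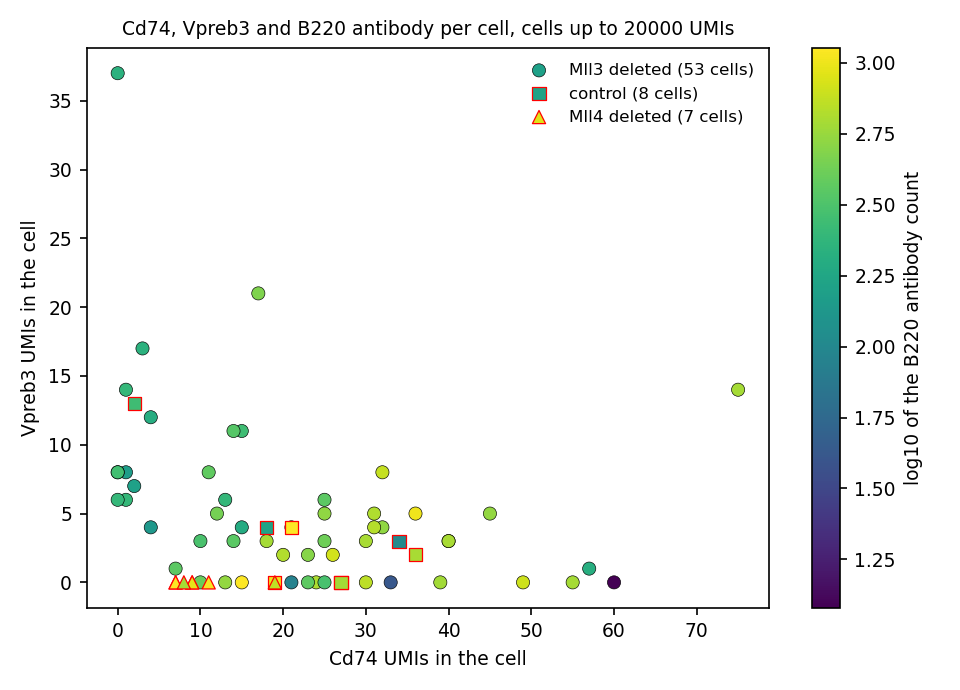
Each point is an Igkc+ Ms4a1+ cell of up to 20000 UMIs, by Cd74 UMIs (x) and Vpreb3 UMIs (y); colour is log10 of its B220 antibody count, with Mll3-deleted cells as circles (53), control as squares (8) and Mll4-deleted as triangles (7). Cells with up to 4 Cd74 UMIs in the Mll3-deleted library all have Vpreb3, with B220 counts of 133 to 285 (median 220). The 7 Mll4-deleted cells lie on the x axis with 7 to 19 Cd74 UMIs and no Vpreb3.

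A few cells departed from high B220. The 3 lowest B220 counts among the 53 cells were 12, 41 and 89, in cells with 60, 33 and 21 Cd74 UMIs and 79, 40 and 20 Igkc UMIs. All 3 lacked Vpreb3, and their Sca1 antibody counts were 745, 938 and 424, against a median of 27 over the 61 cells. Their CD11b antibody counts were 19, 50 and 38, against a median of 3 and an upper quartile of 5. These 3 were singled out after their values were seen.

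Cell cycle genes differed between the large cells and the others. With 61 cells none of 15 G2/M genes and 1 of 15 S phase genes was 2-fold lower (medians -0.46 and -0.30), and with 53 cells 14 and 9 were (medians -1.79 and -1.12). Mki67, a proliferation marker, was in 20 of 61 cells and 262 of 403 precursors (-0.62, or -1.14 with 53 cells). Of the 1878 G2/M UMIs in the 61 cells, 1827 were in 13 cells with at least 10 each; among the 53 cells 6 such cells held 247 of 297, and 20 had none. After thinning a G2/M UMI was found in 42.6% (30 to 55.9) of the cells and 67.7% (62.9 to 72.3) of the precursors. In control no cell exceeded 3 G2/M UMIs and in the Mll4-deleted library none exceeded 1.

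Survival genes were split between members. Of 9 measured, 3 were higher and 2 lower with 61 cells (median 0.47; with 53 cells 4 and 2, median -0.30). Tnfrsf13b, which encodes the BAFF and APRIL receptor TACI, was in 37 cells (1.53), Mcl1 in 51 (1.0) and Bcl2 in 16 (0.92), the last 2 being genes that hold off cell death. Bcl2l11, the gene of the death-promoting protein Bim, had 4 UMIs against 88 (-1.50), and Bcl2l1 4 against 74 (-1.26).

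Of the homing and adhesion list 1 of 8 measured genes was higher and 1 lower (median -0.28; 0.25 with 53 cells). The higher gene was Klf2, and the lower was Itga4, an integrin chain that holds precursors in the marrow (-1.0). Cxcr4, the receptor for the marrow chemokine, was at 26.4 CPM against 44.4 (-0.73, or -0.08 with 53 cells). S1pr1, the receptor that guides lymphocytes into the blood, had 26 UMIs in 14 cells against 23 in 21 precursors and fell under the minimum for the count.

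Lists of other B-cell kinds held few measured genes. Of the marginal zone list 3 of 7 were measured and Mzb1 was lower (-1.75). Of the B-1 list 2 of 6 were measured, with no call by 61 cells, and Cd5 had 1 UMI in the 61 cells. Of the germinal centre and activation list 3 of 11 were measured, of which Cd69 was lower (-1.82). Of the plasma cell list 5 of 9 were measured, and its higher genes were Jchain, in the 1 cell described above, and Txndc5 (1.24); Mzb1 and Slamf7 were lower (-1.75 and -2.17).

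Surface antibodies, which played no part in choosing the cells, also differed between the cells and precursors. In the Mll3-deleted library B220, the long CD45 form of B cells, had a median of 366 counts in the 61 cells (12 to 1309; interval of the median 285 to 529), 167 in B precursors (160 to 177) and 7 in barcodes without B-lineage genes. The log2 ratio of the medians was 1.13 (0.69 to 1.73). It exceeded the B220 threshold of that library, 41.2 counts, in 58 of 61 cells and in 396 of 403 precursors. CD127, the interleukin-7 receptor protein, had medians of 4, 40 and 2 in the same order, a log2 ratio of -3.32 (-3.87 to -2.89), and was above its threshold in 4 of 61 cells and 90.3% (87.0 to 93.0) of precursors. The protein and the Il7r transcript were thus both lower.

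CD117, the Kit protein used for the sort, had a median of 46 counts in the 61 cells (3 to 1367), 63 in precursors and 209 in barcodes without B-lineage genes. It was above its threshold in 9 of 61 cells (14.8%, 6.98 to 26.2), 14.6% (11.3 to 18.5) of precursors and 65.2% of the last. Among the 53 cells only 2 were above it (3.77%, 0.46 to 13.0), so 7 of the 9 were cells of over 20000 UMIs. In control 2 of 8 cells and in the Mll4-deleted library 1 of 7 were above it. CD48 had a median of 658 counts in the 61 cells and 954 in precursors (log2 ratio -0.54, -0.89 to -0.21), and all 61 were above its threshold. CD16/32, the Fc gamma receptors, had medians of 17 and 9 (0.92, 0.53 to 1.39). For Sca1 the medians were 27 and 24, but the upper quartile was 124 in the 61 cells and 41.5 in precursors. Gr1 medians were 33 and 32. Intervals of medians take the cells as independent draws from 1 library.

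**Figure D4:**
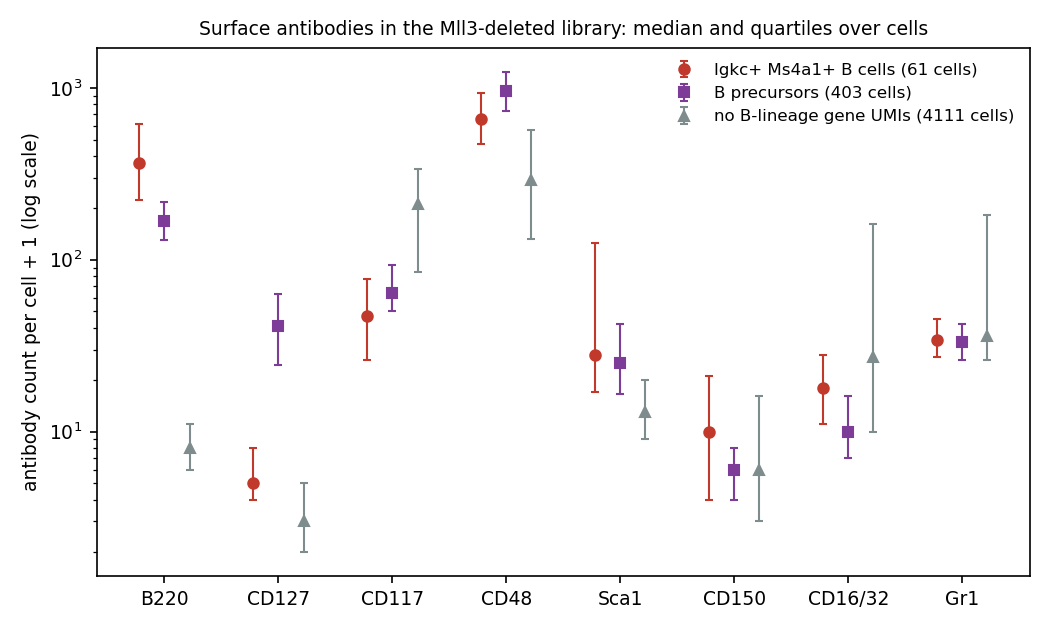
Median (symbol) and quartiles (bars) over cells of 8 surface antibody counts, plus 1 and on a log scale, in the Mll3-deleted library: 61 Igkc+ Ms4a1+ B cells, 403 B precursors and 4111 barcodes without UMIs of 6 B-lineage genes. B220 is highest in the Igkc+ Ms4a1+ cells (366 against 167 and 7), CD127 is high in precursors (40 against 4 and 2), and CD117 is highest in the barcodes without B-lineage genes (209).

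The same cells in the other 2 libraries were few, and their levels are given with counting intervals. Cd74 per cell was 2, 18, 19, 21, 27, 27, 34 and 36 UMIs in control and 7, 7, 8, 9, 9, 11 and 19 in the Mll4-deleted library, so every cell of both had it, as did 55 of 61 in the Mll3-deleted library. Summed, the class II list was at 11717 CPM (10581 to 12941) in control, 9306 CPM (8902 to 9723) in the 53 Mll3-deleted cells and 17315 CPM (14688 to 20276) in the Mll4-deleted cells; with all 61 cells the Mll3-deleted value was 3391 CPM. In control 1 cell of 13860 UMIs held 41.7% of the UMIs; without it, a choice made after the counts were seen, the class II list was at 16752 CPM (14977 to 18679), above the 53 Mll3-deleted cells and within the Mll4-deleted interval. H2-Aa alone was at 2048 CPM (1590 to 2596), 1131 CPM (993 to 1282) and 2586 CPM (1639 to 3880), and at 3309 CPM (2548 to 4226) in control without that cell.

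Vpreb3, listed here with genes of newly formed B cells, was higher in B precursors than in the Igkc+ Ms4a1+ cells of the Mll3-deleted library. It was detected in 5 of 8 control cells (0 to 13 UMIs), 46 of 61 Mll3-deleted cells and none of the 7 Mll4-deleted cells, at 783 CPM (512 to 1147) in control, 1312 CPM (1163 to 1474) in the 53 cells and 0 CPM (interval 0 to 415) in the last. Without the control cell of 13860 UMIs the control level was 1189 CPM (754 to 1784). After thinning to 1000 UMIs the shares were 37.5% (8.52 to 75.5), 54.1% (40.8 to 66.9) and 0% (0 to 41.0), the second over all 61 cells, and every pair of these intervals overlapped. In B precursors of the Mll4-deleted library, with a median of 2535 UMIs against 1073 in the 7 cells, 121 of 123 cells had Vpreb3. The part of depth in the count of 0 was not tested. The newly formed list was at 1265 CPM (912 to 1710), 1936 CPM (1754 to 2131) and 337 CPM (69.6 to 986).

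Follicular genes had overlapping intervals in the 3 libraries, with 7680 CPM (6767 to 8683) in control, 7905 CPM (7534 to 8290) in the 53 Mll3-deleted cells and 7196 CPM (5542 to 9189) in the Mll4-deleted cells. Ighd was at 572 CPM (345 to 894), 270 CPM (205 to 349) and 787 CPM (316 to 1622), with 931 CPM (552 to 1471) in control without its largest cell, and Ighm at 2199 CPM (1723 to 2765), 3653 CPM (3401 to 3917) and 2474 CPM (1550 to 3745). The migration and adhesion list was at 1566 CPM (1170 to 2054), 1466 CPM (1308 to 1637) and 3036 CPM (2001 to 4417). Fcmr was at 361 CPM (187 to 631), 591 CPM (493 to 703) and 562 CPM (183 to 1311). The depth and the share of granulocyte transcripts also differed between these libraries, as given above, and their part in these levels was not tested.

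**Figure D5:**
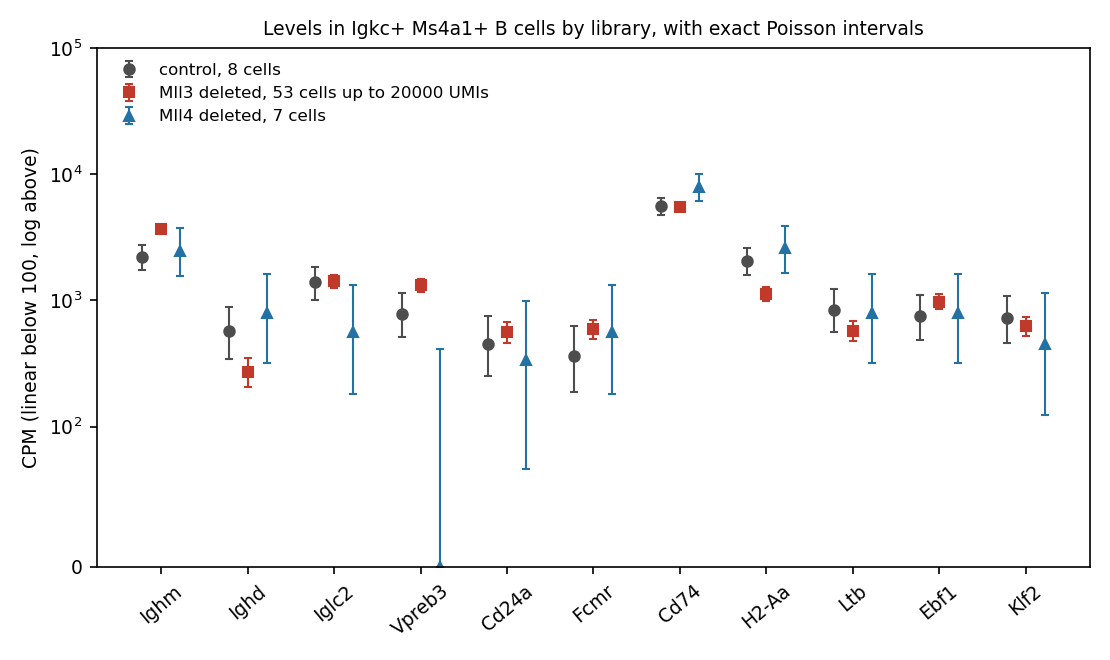
CPM of 11 genes (y, linear up to 100 and logarithmic above) in Igkc+ Ms4a1+ B cells of control (8 cells), of the Mll3-deleted library (53 cells up to 20000 UMIs) and of the Mll4-deleted library (7 cells), with exact 95% Poisson intervals. Vpreb3 is at 0 in the Mll4-deleted cells, and the H2-Aa level of the Mll3-deleted cells lies below that of control with no overlap of the intervals.

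The antibodies gave B220 medians of 613 (104 to 1216) in control and 953 (614 to 1213) in the Mll4-deleted library, beside 366 in the Mll3-deleted library. The control and Mll3-deleted ranges overlapped almost entirely. All 7 Mll4-deleted cells were above the Sca1 threshold of their library with 61 to 397 counts, as were 3 of 8 control and 24 of 61 Mll3-deleted cells. CD127 stayed low, at 0 to 3 counts in control and 1 to 12 in the Mll4-deleted library.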

How the data were processed

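Transcripts and antibodies were counted in 4 libraries, 1 per group. The authors deposited UMI counts per gene and barcode with no normalization (32285 genes, 15 antibody features), made with Cell Ranger 6.1.2 on mm10 per the submitters' processing notes; cell calling settings are not given in the sources used here. Counts were used as deposited and not corrected for free RNA. Cells, gene lists, markers and comparisons were chosen with earlier results of these data known.

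Barcodes were filtered and chosen as the report states. CPM used the gene UMIs of the pooled cells. Named genes were those of 16 fixed lists, plus the 15 highest and 15 lowest log2 ratios, leaving out genes of the 2 rules, immunoglobulin variable genes and predicted genes (Gm and Rik names); the limit of 20000 UMIs and the control levels without its largest cell were added after the data were seen. Antibody thresholds were crossing points of 2-component Gaussian mixtures (scikit-learn 1.9.0), used from 5 counts upward. Doublet scores came from Scrublet in scanpy 1.11.5 (expected rate 0.06; the top 0.8% per 1000 barcodes left out only as an alternative), TMM factors from edgeR 4.0.16, intervals from scipy 1.17.1. On simulated counts over 7836 genes, the comparison of members with precursors recovered 98.5% of 200 genes changed 4-fold and called 2.04% of unchanged genes. These rates hold for the simulated counts only. In the measured data 129 of the 288 higher and 518 of the 803 lower genes also passed without the cells of over 20000 UMIs. A few genes of the lists are not reported here by name.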

Additional observations from a re-analysis of the deposited data

How the results depend on the processing

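Each group had 1 library and 7 to 61 cells, most of them shallow, so that an undetected gene in a cell says little and 7 or 8 cells cannot show small differences between libraries. No paired analysis was possible because each group had 1 library. Without cells of over 1% other-lineage UMIs the Mll4-deleted share was 0.0177%, with at least 10 Igkc UMIs it was 0%, and with a mitochondrial limit of 5% the Mll3-deleted share was 0.714%; the other share alternatives stayed within the counting interval of the main value. The cause of each change was not tested.

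Genes at least 2-fold higher and lower numbered 592 and 1663 without cells over 20000 UMIs, 482 and 1249 with a minimum of 20 UMIs, 84 and 296 with a minimum of 200, 137 and 397 with a pseudocount of 10 CPM, 511 and 1471 with each cell's share weighted equally, and 1072 and 2514 after thinning to 1000 UMIs. The follicular median was 3.67 without cells over 20000 UMIs, 1.78 with a minimum of 200 and 3.40 with equal weights. The MHC class II median was 3.34, 3.01 and 3.60 in that order, 2.69 without the highest Scrublet scores, 2.76 without barcodes of both hashtags and 4.02 after thinning. The receptor signalling median was 1.92 without cells over 20000 UMIs and 0.11 with a minimum of 200. The G2/M median was -1.79 without cells over 20000 UMIs, -1.65 with equal weights and -1.70 after thinning.

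Medians that changed sign belonged to lists near 0 or with few measured genes. Transcription factors were at -0.38 with a mitochondrial limit of 5% and -0.15 with a minimum of 200. Plasma cell genes were at -1.08 without the highest Scrublet scores, -0.69 without cells over 20000 UMIs, -0.39 with a minimum of 200 and -0.38 after thinning. Migration genes were at 0.25 without cells over 20000 UMIs, 0.29 with a minimum of 20 and 0.0649 with equal weights. B-1 genes were at -0.71, -0.0892, -1.06 and -0.036 without cells over 20000 UMIs, with equal weights, after thinning and against cells with Cd79a and Ebf1. Survival genes were at -0.30 without cells over 20000 UMIs and -0.43 after thinning.

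List levels per library with equal weights were 9025 CPM (control) and 7449 CPM (Mll3-deleted) for follicular genes, 14893 CPM and 9044 CPM for MHC class II and, in the Mll3-deleted library, 1902 CPM for newly formed genes. Without cells over 20000 UMIs the Mll3-deleted levels were 7905, 9306 and 1936 CPM. Without the control cell of the highest UMI count the control levels were 9617 CPM for follicular genes and 16752 CPM for MHC class II. The antibody ratios of B220, CD127 and CD117 kept their direction under all 7 alternatives run for each. For genes named one by one, 334 of 400 gene and alternative pairs stayed close to the main value and 66 moved.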

Other observations

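Cells close to the rule held other B cells, given here as values. In 3 control and 14 Mll3-deleted barcodes, Ms4a1 and Cd79a came with fewer than 3 Igkc UMIs and at least 3 UMIs of the lambda constant regions. Their lambda counts had medians of 34 (11 to 45) and 31 (5 to 57). All 17 had Vpreb3, with medians of 3 and 8 UMIs, and Cd74 medians were 5 and 1.5. The B220 antibody medians were 430 and 234.5. Fcmr was in none of the 3 and 5 of the 14, and Ighd in 2 and 3. No such barcode was found where Mll4, or both genes, were deleted.

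At least 3 Igkc UMIs with Cd79a and no Ms4a1 were found in 36 control barcodes, in 63 with Mll3 deleted, in 9 with Mll4 deleted and in 104 with both deleted. In control 29 of the 36 also had at least 3 UMIs of Vpreb1 and Igll1, and in the Mll3-deleted library 6 of the 63. Vpreb3 was in 100% and 98.4% of them and Cd74 in 22.2% and 20.6%. Their B220 medians were 211 and 175.

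Barcodes with at least 10 Jchain and 100 immunoglobulin constant region UMIs numbered 2 in the Mll3-deleted library, of which 1 is among the 61 cells, and 2 in the Mll4-deleted library.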
